A study of Bos taurus with 6 samples.

Results

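The miRNAs described here are miR-126, miR-143 and miR-145, which are known best from the wall of blood vessels. They were chosen by name, as every row of the deposited count table called bta-miR-126-3p, bta-miR-126-5p, bta-miR-143 or bta-miR-145, a rule that uses no measured value. Each of the 4 names had 1 entry, out of 1055 entries in the table, of which 890 are miRBase entries and 629 of these had at least 1 count. Cumulus cells surround the oocyte and form with it the cumulus-oocyte complex (COC), and small RNA of 6 bovine pools of these cells was sequenced. The blastocyst group comprised Samples D, E and F, in which the enclosed oocytes had become blastocysts, and the not-cleaved group comprised Samples A, B and C, in which they had failed to cleave. In both groups the COCs came from slaughterhouse ovaries, were matured in vitro for 23 h with follicle stimulating hormone and serum, and gave small cumulus pieces that were pooled from 10 to 16 COCs. The pieces were taken before the oocytes met sperm, and no source used here gives the number or age of the cows.

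miRNAs guide Argonaute proteins to messenger RNAs that pair with them, which are then less translated or degraded. miR-126 is processed from an intron of EGFL7, the gene of a factor secreted by endothelial cells, and both arms of its hairpin can be active. In mouse and human endothelium miR-126-3p represses SPRED1 and PIK3R2 and so favours signalling by vascular endothelial growth factor. miR-143 and miR-145 are made from one primary transcript in mammals, and in mouse and human they favour the contractile state of vascular smooth muscle, miR-145 by repressing KLF4 and miR-143 by repressing ELK1. Vessels of the follicle run in the theca, outside the basement membrane, while the granulosa layer and the cumulus have none before ovulation. In the RefSeq gene table of bovine assembly ARS-UCD2.0, MIR126 lay within EGFL7, and MIR143 and MIR145 lay within 10 kb of each other inside the same long non-coding RNA gene, LOC132345768. No further miRNA gene lay within 10 kb of any of them.

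Library totals ran from 2776256 counts in Sample B to 8139237 in Sample D, a 2.93-fold range, with 7865111 in Sample A and between 3551009 and 4277291 in the other 3. Values are given as counts and as CPM, the count divided by the library total and multiplied by 1e6. As a one-sided limit at 95%, a count of 0 allows up to about 3 counts, or 0.369 to 1.08 CPM depending on the library. Exact binomial (Clopper-Pearson) intervals at 95% are given with single libraries, and they cover counting error only, since PCR copies were not marked. For a count of 0 their upper limits are higher, from 0.453 CPM in Sample D to 1.33 CPM in Sample B. Samples B and E stood above the other libraries for several entries, among them miR-1246, which is described below for its likeness to miR-143. The group differences in level are therefore also given without both, which leaves fewer libraries per group and is no independent check.

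The vascular miRNAs were scarce in every pool. Summed, they had 123, 98 and 61 counts in Samples D, E and F, against 122, 83 and 98 counts in Samples A, B and C. This was 15.1, 27.6 and 16.4 CPM in Samples D, E and F, against 15.5, 29.9 and 22.9 CPM in Samples A, B and C. The sum was thus between 0.00151% and 0.00299% of a library, and the groups overlapped. The difference of the means was -3.07 CPM, and without Samples B and E it was -3.46 CPM. Of the 585 counts, 511 were miR-143 and 64 were miR-126-3p. The order of the levels was miR-143 first, with a mean of 18.3 CPM over the 6 libraries, then miR-126-3p with 2.54 CPM, and last miR-126-5p and miR-145 with 0.177 and 0.176 CPM. miR-143 was above miR-126-3p in all 6 libraries, while miR-126-5p and miR-145 had 5 counts each over all libraries and cannot be ranked. miR-143 was in place 228 and miR-126-3p in place 353 of the 358 entries that passed the expression filter, whose median level was 39.2 CPM. miR-126-5p and miR-145 did not pass the filter. By comparison, miR-21-5p, the most abundant miRNA of these cells, had a mean of 500898 CPM.

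**Figure D1:**
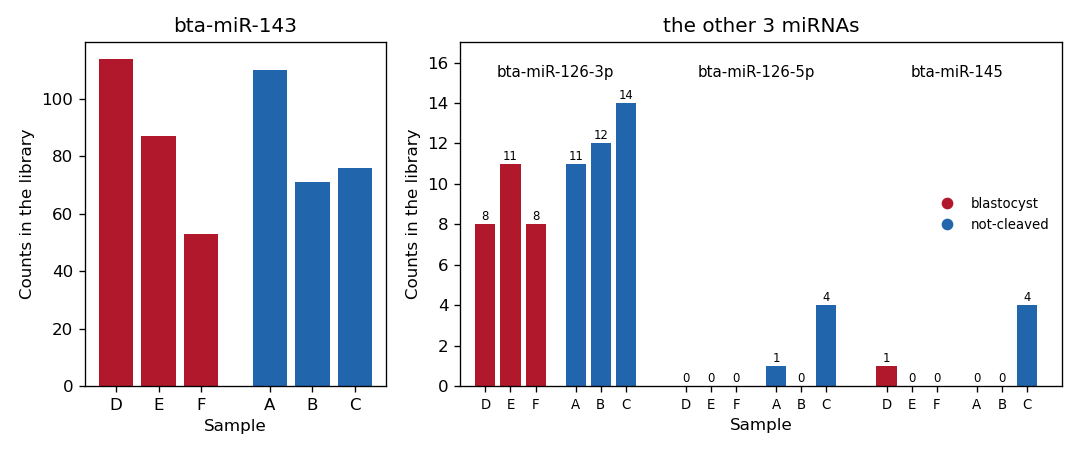
Counts of bta-miR-143 (left) and of bta-miR-126-3p, bta-miR-126-5p and bta-miR-145 (right) in each library, with blastocyst Samples D, E and F in red and not-cleaved Samples A, B and C in blue. miR-143 had 53 to 114 counts, miR-126-3p had 8 to 14, and the other 2 had at most 4.

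miR-126-3p, the arm of the endothelial hairpin that is usually counted as the guide, was found in all 6 pools with a nearly constant number of counts. Samples D, E and F had 8, 11 and 8 counts, against 11, 12 and 14 counts in Samples A, B and C. As CPM these were 0.983 (95% interval 0.424 to 1.94), 3.10 (1.55 to 5.54) and 2.15 (0.928 to 4.24) in Samples D, E and F, against 1.40 (0.698 to 2.50), 4.32 (2.23 to 7.55) and 3.27 (1.79 to 5.49) in Samples A, B and C. Samples D and A, the deepest libraries, were lowest on this scale, and the groups overlapped. The mean was 2.08 ± 1.06 CPM (SD, n = 3) in blastocyst samples and 3.0 ± 1.48 CPM (SD, n = 3) in not-cleaved samples. The difference of -0.92 CPM was smaller than the SD of either group (two-sided exact permutation test, p = 0.4, where 3 libraries against 3 cannot give a p below 0.1). In edgeR's quasi-likelihood test the log2 fold change of blastocyst over not-cleaved samples was -0.44 (SE 0.66, 95% interval -2.0 to 1.12, adjusted p = 0.993). Without Samples B and E it was -0.61, and the CPM difference was -0.77. The interval over all 6 libraries holds changes of more than 2-fold in either direction.

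miR-126-5p, the other arm, targets DLK1 in mouse endothelium. It had 0 counts in Samples D, E and F, against 1, 0 and 4 counts in Samples A, B and C. The 4 counts of Sample C were 0.935 CPM (95% interval 0.255 to 2.39), and the upper limits of the libraries at 0 lay between 0.453 CPM in Sample D and 1.33 CPM in Sample B, so the intervals overlapped. A mean of 0 CPM in blastocyst samples and of 0.354 ± 0.507 CPM (SD, n = 3) in not-cleaved samples gave p = 0.4 in the two-sided exact permutation test. Only Samples A and C held counts, and no split of such values into 3 and 3 libraries gives a lower p. The test thus could not have shown a difference. The difference was -0.35 CPM, and -0.53 CPM without Samples B and E. No fold change is given, because 1 group had no count and the other averaged under 3 counts per library.

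The 3p arm made up most of the counts of miR-126. Over all libraries it had 64 counts and the 5p arm had 5, a share of 92.8% for the 3p arm (95% interval 83.9% to 97.6%). In Sample C the share was 77.8% (52.4% to 93.6%), and in Sample A it was 91.7% (61.5% to 99.8%). In Samples D, E, F and B every count was 3p, with lower limits of 63.1%, 71.5%, 63.1% and 73.5%. All these intervals overlapped. With 1 count added to each arm, the log2 ratio of 3p to 5p was 3.31 ± 0.24 (SD, n = 3) in blastocyst samples and 2.62 ± 1.06 (SD, n = 3) in not-cleaved samples, and the difference of 0.68 gave p = 0.4 in the two-sided exact permutation test. In Samples D, E, F and B, with 0 counts of 5p, this value is the log2 of the 3p count plus 1. Its SD and p thus do not describe the balance of the arms. In a single random draw that thinned all libraries to the depth of Sample B, the group difference of this ratio was -0.19. That draw had only the 5 counts of 5p to draw from.

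miR-143, a miRNA of smooth muscle and other mesenchymal cells that has also been described in the mouse ovary in cells of the granulosa lineage, was the only one of the 4 with more than 50 counts in every library. Samples D, E and F had 114, 87 and 53 counts, against 110, 71 and 76 counts in Samples A, B and C. As CPM these were 14.0 (95% interval 11.6 to 16.8), 24.5 (19.6 to 30.2) and 14.2 (10.7 to 18.6) in Samples D, E and F, against 14.0 (11.5 to 16.9), 25.6 (19.97 to 32.3) and 17.8 (14.0 to 22.2) in Samples A, B and C. Each group held 1 high library, Sample E among the blastocyst samples and Sample B among the not-cleaved ones, and at least 1 library near 14 CPM. The intervals of Samples E and B lay above those of Samples D and A. The means were 17.6 ± 5.99 CPM (SD, n = 3) in blastocyst samples and 19.1 ± 5.91 CPM (SD, n = 3) in not-cleaved samples, a difference of -1.53 CPM (two-sided exact permutation test, p = 0.7). The log2 fold change was -0.01 (SE 0.35, 95% interval -0.85 to 0.83, adjusted p = 0.996 in edgeR's quasi-likelihood test). The interval holds changes of up to about 0.8 on the log2 scale in either direction, and the sign of the point estimate turned under 7 of 16 alternatives. Without Samples B and E it was -0.16, and the CPM difference was -1.75.

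**Figure D2:**
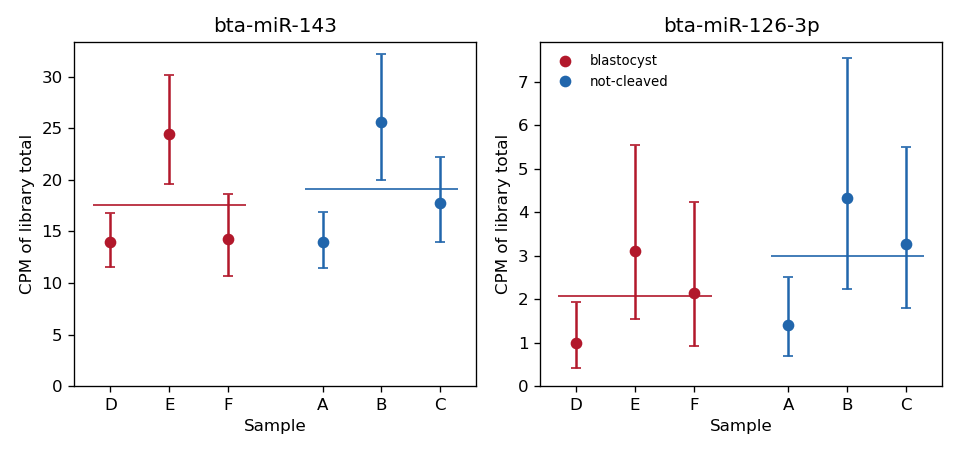
CPM of bta-miR-143 (left) and bta-miR-126-3p (right) in each library, with exact 95% intervals as bars and group means as horizontal lines, blastocyst samples in red and not-cleaved samples in blue. For miR-143 Samples E and B are high at 24.5 and 25.6 CPM, 1 in each group, and for miR-126-3p Samples D and A are low at 0.983 and 1.40 CPM.

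miR-145, the neighbour of miR-143, was at the limit of detection. Samples D, E and F had 1, 0 and 0 counts, against 0, 0 and 4 counts in Samples A, B and C. Those 4 counts were 0.935 CPM (95% interval 0.255 to 2.39), and the 1 count of Sample D was 0.123 CPM (0.00311 to 0.685). The means were 0.041 ± 0.071 CPM (SD, n = 3) in blastocyst samples and 0.312 ± 0.540 CPM (SD, n = 3) in not-cleaved samples (two-sided exact permutation test, p = 1). Only Samples C and D held counts, so this p depends on nothing but whether they fall in the same group. It cannot reach the 0.1 possible with 3 libraries against 3. The not-cleaved value rests on Sample C alone, without which the difference of -0.27 CPM becomes 0.041 CPM. Without Samples B and E it was -0.41 CPM.

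Although they are neighbours in the genome, miR-143 and miR-145 were far apart in abundance. Over all libraries there were 511 counts of miR-143 and 5 of miR-145, a ratio of 102.2 with a counting interval of 43.5 to 316.1. In Sample C, the library with the most miR-145, the ratio was 19.0 (7.12 to 71.5), and in Sample D it was 114 (20.1 to 4542). Where miR-145 had 0 counts, the lower 95% limit of the ratio was 23.1 in Sample E and 13.9 in Sample F, against 29.3 in Sample A and 18.8 in Sample B. With 1 count added to each, the log2 ratio of miR-143 to miR-145 was 6.02 ± 0.38 (SD, n = 3) in blastocyst samples and 5.64 ± 1.498 (SD, n = 3) in not-cleaved samples (difference 0.38, two-sided exact permutation test, p = 0.9). In Samples E, F, A and B, with 0 counts of miR-145, this value is the log2 of the miR-143 count plus 1. Its SD and p thus do not describe the balance of the pair. Without Sample C the difference was -0.46. Ligation and amplification can favour some small RNAs over others, and the part of this in ratios between different miRNAs was not tested.

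The balance of the smooth muscle to the endothelial miRNA overlapped between the groups. There were 14.2, 7.91 and 6.62 counts of miR-143 per count of miR-126-3p in Samples D, E and F, against 10, 5.92 and 5.43 in Samples A, B and C. The ratio over all libraries was 7.98 (95% interval 6.15 to 10.5), and the interval of every single library overlapped those of the others. The log2 ratio of miR-126-3p to miR-143 averaged -3.18 ± 0.58 (SD, n = 3) in blastocyst samples and -2.78 ± 0.48 (SD, n = 3) in not-cleaved samples, a difference of -0.41 (two-sided exact permutation test, p = 0.5). Without Samples B and E it was -0.40. This ratio does not depend on how libraries are scaled.

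None of the members passed the threshold between the groups. Of the 358 entries tested with edgeR's quasi-likelihood test, 0 (0%) passed an adjusted p of 0.05, and 10 (2.79%) had an unadjusted p under 0.05. With DESeq2 0 entries passed and 7 were under 0.05 before adjustment, and with edgeR's exact test 0 passed and 4 were under 0.05 before adjustment. Among the members, 2 of 4 were tested, 0 of these 2 passed, and their unadjusted p was 0.530 for miR-126-3p and 0.976 for miR-143. CPM of the groups did not overlap for 33 of the 358 entries (9.22%) and overlapped for both tested members. The median log2 fold change over all tested entries was -0.02. The labels name neither collection days nor animals for the pools, so every p here rests on the spread among pools, which may be technical. In pooled cells, fewer cells of a type and less RNA per cell cannot be told apart.

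Counts of miR-126-3p did not follow library depth. Its highest count was 1.75 times its lowest, while totals differed 2.93-fold. If the pooled level of miR-126-3p held in every library, Sample D would have 17.2 counts and Sample A 16.6, where 8 and 11 were found, and Sample B would have 5.86, where 12 were found. Of the 349 tested entries with counts in all 6 libraries, only miR-9-3p had a smaller ratio of highest to lowest count, 1.56, and miR-1260b had the same ratio as miR-126-3p. Both were chosen after their values were seen. The median ratio was 3.68 over the 349 entries, and it was 5.75 over the 37 others within 2-fold of the mean count of miR-126-3p. miR-143 had a ratio of 2.15, smaller than all but 1 of 74 entries of like mean count, whose median was 4.22. It had 114 and 110 counts in Samples D and A, where the pooled level gives 137.1 and 132.5, and 71 counts in Sample B, where it gives 46.8. On the CPM scale miR-126-3p varied with a coefficient of variation of 49.6% and miR-143 with one of 29.4%, where counting error at their mean counts alone gives 30.6% and 10.8%. The part of depth in these levels was not tested.

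**Figure D3:**
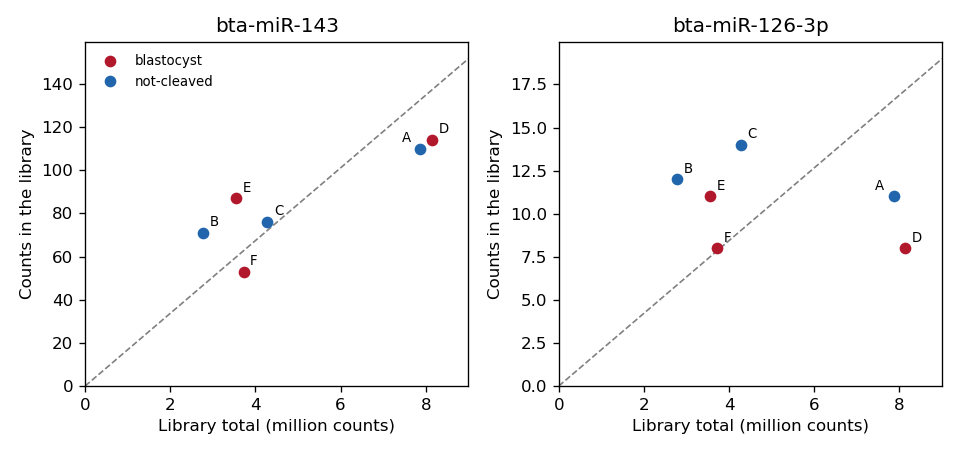
Counts of bta-miR-143 (left) and bta-miR-126-3p (right) against the library total (on the axis in units of 1e6 counts), with the Sample letter at each point, blastocyst samples in red and not-cleaved samples in blue. The dashed line is the count at the pooled level of all 6 libraries. Samples D and A lie below it in both plots, for miR-126-3p at 8 and 11 counts against 17.2 and 16.6 on the line.

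On the CPM scale miR-126-3p and miR-143 tended to be high in the same libraries. Pearson's r of their TMM-scaled log2 CPM was 0.81 over the 6 libraries (exact permutation p = 0.0722, adjusted p = 0.433 over the 6 pairs of members) and Spearman's rho was 0.66 (exact permutation p = 0.175, adjusted p = 0.740). Without Samples A and D, the 2 libraries farthest from the median, r was 0.74. The relation thus does not pass the correction. Both values were divided by the same library sizes, so shared scaling enters r, rho and p, and its part was not tested. The other 5 pairs include a member at 0 in 4 libraries, where log2 CPM reflect depth and the prior count, and their values are not given.

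Among 257 other entries that averaged 50 counts or more, those most like miR-126-3p over the 6 libraries were the putative miRNA put-53 (Pearson's r = 0.95) and both entries of let-7f (r = 0.89 and 0.88), a growth-restraining miRNA of the let-7 family. put-53 was at 34.2, 115 and 49.7 CPM in Samples D, E and F, against 46.5, 127 and 93.8 CPM in Samples A, B and C. Among 256 others, those most like miR-143 were miR-2424 (r = 0.95), miR-1246 (r = 0.94) and again put-53 (r = 0.93). miR-1246, whose reads in human cells are known to derive largely from the small nuclear RNA U2, was at 25.3, 118 and 23.7 CPM in Samples D, E and F, against 19.96, 228 and 71.8 CPM in Samples A, B and C. Samples E and B were highest for put-53, miR-2424 and miR-1246, as they were for miR-143. These entries were picked for their likeness to miR-143, so this follows from the choice and is no separate finding. These likenesses are descriptions over 6 points that share their library scaling.

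Endothelial miRNAs were among the scarcest of the cell type lists compared. The granulosa and gonad list, with the gonadal miR-202 and the gonadotropin-responsive miR-132 and miR-212, summed to between 486890 and 623077 CPM in blastocyst samples, against 408597 to 496121 CPM in not-cleaved samples, most of it miR-21-5p, which many cell types express. All 6 of its entries were tested. miR-202 alone had 48572, 22649 and 24871 counts in Samples D, E and F, against 65607, 23471 and 27583 in Samples A, B and C. Per 1000 counts of miR-202 there were 2.35, 3.84 and 2.13 counts of miR-143 in Samples D, E and F, against 1.68, 3.03 and 2.76 in Samples A, B and C. For miR-126-3p the same values were 0.165, 0.486 and 0.322, against 0.168, 0.511 and 0.508. On this base Samples E and B were the highest for miR-143, and Samples D and A the lowest for miR-126-3p, with Samples B, C and E close together. miR-202 itself lay between 5968 CPM in Sample D and 8454 CPM in Sample B, so this base largely repeats the library total.

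The blood cell list, which would come with vessels, had 7 entries, none of them tested. Of these, miR-144 and miR-223 had 0 counts in every library, and the list summed to between 0.806 and 3.66 CPM in blastocyst samples, against 0.763 to 5.04 CPM in not-cleaved samples. Its highest count was 20, of miR-486, an erythroid miRNA, in Sample D, the deepest library. As CPM, miR-486 was highest in Sample B, at 3.60 against 2.46 in Sample D. For miR-451, also erythroid, 5 counts came from Sample D, 1 from Sample E and 0 from the other 4 libraries. The sums of the endothelial list were of like size, between 0.983 and 3.10 CPM in blastocyst samples and between 1.53 and 4.32 CPM in not-cleaved samples.

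The summed stromal list was above miR-143 in every library. The list of stromal and theca fibroblasts, all 6 entries of which were tested, summed to 180, 141 and 121 CPM in Samples D, E and F, against 90.1, 190 and 153 CPM in Samples A, B and C. The entries of miR-199a-5p and miR-199b were each below miR-143 in all 6 libraries. Both entries of miR-199a-3p, a miRNA of mesenchymal cells, made up most of the sum, with means of 65.0 and 57.8 CPM in blastocyst samples and 61.8 and 59.0 CPM in not-cleaved samples. These entries are copies of one mature miRNA. How reads were divided between them is not stated, so their counts are not taken as independent. miR-214, which shares a transcript with a miR-199a in mammals, had 119, 22 and 13 counts in Samples D, E and F, against 35, 33 and 30 counts in Samples A, B and C. Of this list 0 entries passed, 5 point estimates were above 0 and 1 was below. The 5 include both entries of miR-199a-3p and both of miR-199a-5p. The median log2 fold change of the list was 0.21, beside -0.02 over all tested entries.

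Sample D, in which the CPM of miR-126-3p was lowest, held the most counts of miR-1 and miR-206, miRNAs of striated muscle, but not of miR-499. The 2 entries of miR-1 had 177 and 170 counts there, against 14 to 24 in Samples E and F and 6 to 19 in Samples A, B and C, and miR-206 had 8 counts there and 0 in the others. miR-143 and miR-145 were not high in Sample D, at 14.0 and 0.123 CPM. Over its 9 entries the striated muscle list summed to 122 to 133 CPM in blastocyst samples, against 120 to 180 CPM in not-cleaved samples, and most of this was miR-499, which had its lowest level in Sample D, at 88.8 CPM against 111 to 175 CPM in the other 5 libraries. Of its 3 tested entries 0 passed, with a median log2 fold change of 2.23, set by the entries of miR-1, and miR-133b, miR-208a and miR-208b had 0 counts in every library. The epithelial list, led by miR-200b, summed to 152 to 208 CPM in blastocyst samples, against 212 to 245 CPM in not-cleaved samples. Of its 5 entries 2 were tested, 0 passed and both had point estimates below 0, with a median log2 fold change of -0.31. Among the entries not tested, miR-200c and miR-141 had higher means in blastocyst samples, and both were highest in Sample E. Their blastocyst means were 4.40 and 2.03 CPM, against 1.92 and 0.855 CPM in not-cleaved samples, and Sample E held 8.45 and 4.79 CPM. For miR-429 the blastocyst mean was the lower, 0.217 against 1.08 CPM.

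**Figure D4:**
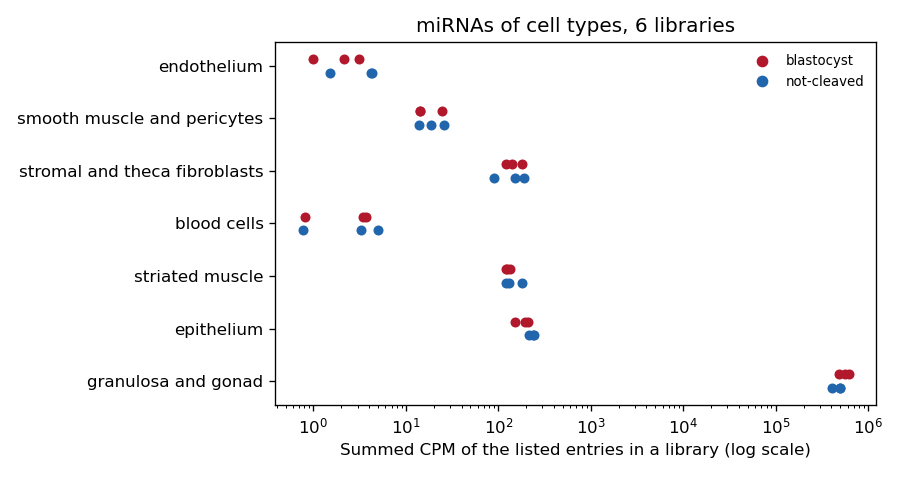
Summed CPM of the listed miRNAs of each cell type (rows) in the 6 libraries, on a log axis, with blastocyst samples in red above not-cleaved samples in blue. The endothelial and blood cell lists lie at or below 5.04 CPM and the smooth muscle list between 14.0 and 25.6 CPM, under the stromal, striated muscle and epithelial lists and far under the granulosa and gonad list.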

How the data were processed

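Small RNA of 6 pools of bovine cumulus cells was sequenced on an Illumina NextSeq, and miRNAs were identified by miRBase Release 20. What the authors deposited are raw counts for each entry, whole numbers that had not been scaled. The sources used here name neither the aligner and counting tool nor the genome build. The authors' table of the group comparison (log2 fold changes, p-values, FDR values and mean counts) was not used, nor was their table of log2 values, which holds none of the 4 entries. Letters and groups were read from column names and were not tied to single sample titles.

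Analyses used R 4.3.3, edgeR 4.0.16, DESeq2 1.42.0, Python 3.11.15, scipy 1.17.1, numpy 2.4.6 and matplotlib 3.10.9. The table was filtered with filterByExpr by group, scaled by TMM, tested over the whole table with edgeR's quasi-likelihood test (checked on counts drawn with known changes) and adjusted by Benjamini-Hochberg at 0.05. The SE is the absolute log2 fold change over the root of F. Log2 CPM used a prior count of 2. Ratios against miR-126-5p and miR-145 had been planned without an added count. Since 4 libraries were at 0 for each, 1 count was added. Named were the 4 members, entries of fixed cell type lists, miR-21-5p, precursors within 10 kb, and the 3 entries most like a member with a mean of at least 50 counts. Likeness was left out for the members at 0 in 4 libraries, and a search for shared seeds was not run. Members and lists were chosen with earlier results of these data known. Alternatives were DESeq2, upper-quartile factors, library totals, leaving out miR-21-5p, other filters, the exact test, merged entries, other denominators, thinning and leaving out each library. Leaving out Samples B and E was added after the data were seen.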

Additional observations from a re-analysis of the deposited data

How the results depend on the processing

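The count of entries called was 0 under all 16 alternatives. The log2 fold change of miR-126-3p kept its sign under the 14 alternatives in which it was tested (-0.81 to -0.05), and it had no value with more than 10 counts required in every library or after thinning. That of miR-143 turned positive with DESeq2 (0.012), without miR-21-5p (0.0048), with upper-quartile factors (0.40, where the median of all entries moved to 0.32), and without Sample B (0.15), C (0.03), D (0.12) or F (0.13), a leave-one-out range of -0.29 to 0.15. The CPM difference of miR-143 was 3.70 when library totals left out miR-21-5p, 1.71 without Sample B, 0.26 without Sample D and 0.14 without Sample F (lowest -4.98, without Sample E). The summed CPM difference of the 4 miRNAs, -3.07, was 1.54 with those totals and 0.49 without Sample B, and ran from -7.02 to 0.49 with a library left out. The CPM difference of miR-145 ran from -0.43 to 0.041 with a library left out, the higher value without Sample C. It was -0.49 when library totals left out miR-21-5p. The log2 ratio of the arms of miR-126 differed by 0.68, by 0.17 to 1.22 with a library left out and by -0.19 after thinning. That of miR-143 to miR-145 differed by 0.38, with -0.46 (without Sample C) to 0.96 left-out values. Both ratios rest on the added count where the second miRNA was at 0, and thinning was a single random draw. The log2 ratio of miR-126-3p to miR-143 stayed negative, from -0.68 to -0.08 over 9 alternatives. The r of this pair stayed between 0.75 and 0.87 over 7, all with library scaling shared by both. Without Samples B and E no sign turned in the differences and fold changes computed, and the count of entries called stayed at 0. The arm ratio of miR-126, the ratio of miR-143 to miR-145 and r were not computed without both. The cause of the reversals under the other alternatives was not tested. No paired analysis was possible because the columns carry letters and no replicate numbers shared between groups. miR-126-5p and miR-145 had at most 4 counts in any library, and 0 in 4 of the 6, where depth allows upper bounds alone.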
